A study of Homo sapiens with 6 samples.

Results

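Aldo-keto reductases were measured in HK2 cells, an immortal epithelial line from human kidney, after small interfering RNA (siRNA) against OCRL. OCRL is a phosphatase of membrane phosphoinositides. Each probe set of the array whose gene symbol began with AKR and a digit was taken, which gave 13 of the 22215 probe sets tested and 8 of the 11963 genes measured under a single name. The genes were AKR1B10, AKR1C1, AKR1C2, AKR1C3, AKR1C4, AKR1D1, AKR7A2 and AKR7A3. No probe set was named here for AKR1A1 or AKR1B1, which were not analysed, and no probe set was shared by several AKR symbols. The family was chosen from the difference between the same 6 arrays, in which AKR1C3 stood among the largest rises. Differences of its members are therefore descriptions. For these members "called" states only on which side of the threshold (limma, adjusted p of 0.05 over all probe sets) a probe set fell.

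Both groups were HK2 cells kept in DMEM F12 medium with insulin, transferrin and selenium, and transfected with Dharmafect 4 at 30% confluence. The 3 control cultures received a non-targeting siRNA and the 3 knockdown cultures an OCRL siRNA, each for 96 h, in independent experiments by the labels. One array was run per culture, so the precision rests on 3 arrays per group. Every knockdown culture received the OCRL siRNA treatment, so an effect of lower OCRL and other effects of that reagent cannot be told apart. Values are log2 intensities normalised by robust multi-array averaging (RMA), so an increase of 1 is a doubling of signal.

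Aldo-keto reductases are soluble enzymes that use NADPH to reduce aldehydes and ketones to alcohols. The AKR1B enzymes act on sugars, retinal and lipid aldehydes, the AKR1C enzymes on steroids, prostaglandins and aromatic ketones, and the AKR7A enzymes on dialdehydes such as that of aflatoxin. Several human members, among them AKR1B10, AKR1C1, AKR1C2 and AKR1C3, are well known targets of NRF2, the transcription factor of the antioxidant response. AKR1C1, AKR1C2, AKR1C3 and AKR1C4 lie next to each other in a cluster that arose by duplication.

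The duplication is visible in the sequence before their start sites, which is shown so that the copies can be compared. RefSeq promoter windows (GRCh38.p14) were found for 7 of the 8 genes, all but AKR1B10. The 250 bases before the start are given 5′ to 3′ on the strand of the gene, and capitals mark bases not matched to AKR1C1 in a pairwise alignment. They lie at chr10:4963165-4963414 on the plus strand for AKR1C1, chr10:5003858-5004107 on the minus strand for AKR1C2, chr10:5048531-5048780 on the plus strand for AKR1C3 and chr10:5196587-5196836 on the plus strand for AKR1C4.
AKR1C1: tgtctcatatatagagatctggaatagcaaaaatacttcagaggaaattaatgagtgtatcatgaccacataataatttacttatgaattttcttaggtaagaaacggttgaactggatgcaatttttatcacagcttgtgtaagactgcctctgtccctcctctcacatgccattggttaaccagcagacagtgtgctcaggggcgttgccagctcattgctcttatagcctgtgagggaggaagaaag
AKR1C2: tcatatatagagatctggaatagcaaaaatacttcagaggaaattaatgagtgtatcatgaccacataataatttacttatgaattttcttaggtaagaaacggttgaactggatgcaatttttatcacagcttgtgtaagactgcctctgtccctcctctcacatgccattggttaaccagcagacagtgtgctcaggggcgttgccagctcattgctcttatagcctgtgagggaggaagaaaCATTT
AKR1C3: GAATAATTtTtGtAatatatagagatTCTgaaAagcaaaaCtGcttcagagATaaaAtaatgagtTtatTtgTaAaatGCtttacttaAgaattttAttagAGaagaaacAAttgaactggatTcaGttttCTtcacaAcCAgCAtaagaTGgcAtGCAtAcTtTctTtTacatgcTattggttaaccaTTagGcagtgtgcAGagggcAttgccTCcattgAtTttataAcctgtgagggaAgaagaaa
AKR1C4: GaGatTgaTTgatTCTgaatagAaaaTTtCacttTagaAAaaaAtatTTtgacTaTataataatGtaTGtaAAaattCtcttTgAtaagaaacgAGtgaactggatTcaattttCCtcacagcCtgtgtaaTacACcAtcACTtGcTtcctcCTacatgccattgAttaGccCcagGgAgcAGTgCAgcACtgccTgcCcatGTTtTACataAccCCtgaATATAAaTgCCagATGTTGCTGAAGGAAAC

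AKR1C1 and AKR1C2 held the same run of 245 bases, and the capitals at the end of AKR1C2 are 1 mismatch to the last base of AKR1C1 and 4 bases that lie past its start in the alignment. Identity to AKR1C1 was 99.6% for AKR1C2, 74.0% for AKR1C3 and 63.2% for AKR1C4 over the aligned columns between end gaps. A second RefSeq start of AKR1C3 was 73.6% identical to AKR1C1. AKR1C1, AKR1C2 and both starts of AKR1C3 shared the stretch attggttaacca, at positions -77, -81, -73 and -86 from their starts, and AKR1C4 did not hold it. It contains CCAAT on the opposite strand, a motif present on either strand in 34.6% of all 35116 windows of 300 bases (250 before and 50 after the start). The core of the antioxidant response element, TGACNNNGC on either strand, was found in 13.3% of all windows. Among the 9 windows of the family it was found in the 2 overlapping ones of AKR7A2. In the window at chr1:19312095-19312394 on the minus strand it lay at positions -158 and -97 on the strand of the gene and at -169 on the other. Absence of this core from the other windows says only that the letters are not there. Sequence beyond the 300 bases was not searched, and AKR1B10 had no window. The AP-1 motif TGANTCA was in 7.71% of all windows and in none of the 9, which says only that these letters are not in these windows. No match of these motifs overlapped another in the family.

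OCRL itself was lower in every knockdown array. The control arrays read 9.49, 9.48 and 9.51 with its brighter probe set, and the OCRL siRNA arrays 7.52, 7.49 and 7.40. By limma 24.6% of the signal remained with this probe set (adjusted p = 1.24e-05) and 49.7% with the dimmer one (adjusted p = 7.64e-04). The exact two-sided permutation p was 0.10 for both, the smallest that 3 arrays against 3 allow. Of 12 proximal tubule markers measured, LRP2, AQP1 and ANPEP lay below the lower quartile of all probe sets (5.23 to 5.31 on the 6 arrays) on every array, 3 rose (DPP4, MME and the dim ANPEP) and 2 fell (CDH6 and PAX8). Of 7 general epithelial markers 4 fell (EPCAM, KRT8, KRT19 and CLDN4), and the summed log2 level of the list ran from 62.5 to 62.9 in control and from 60.5 to 60.7 in knockdown arrays. The call of ANPEP was lost when control replicate 1 (0.52), control replicate 2 (0.46), OCRL siRNA replicate 2 (0.56) or OCRL siRNA replicate 3 (0.51) was left out. CDH1 and ESRP1 of the epithelial list lay below the lower quartile on every array. Over all genes, with 1 probe set per gene, 15.5% were called higher and 10.5% lower. Among markers of other cell types, 0 rose and 1 of 11 hepatocyte (FGB), 1 of 7 distal nephron (SCNN1G) and 1 of 6 fibroblast genes (LUM) fell. The summed log2 level of the hepatocyte list was also lower in knockdown arrays (66.6 to 66.9) than in control arrays (67.9 to 69.3). So were those of the distal nephron (35.5 to 35.9 against 36.1 to 36.8) and fibroblast lists (38.2 to 38.7 against 38.8 to 39.4). Sums of the proximal tubule, endothelial and leukocyte lists overlapped between the groups. The call of SCNN1G was lost without control replicate 2 (-0.19), without OCRL siRNA replicate 1 (-0.22) or 3 (-0.21), and with trend and robust settings (adjusted p = 0.0842). Of 6 endothelial and 5 leukocyte genes 0 were called by limma, and 2 endothelial and 0 leukocyte genes had an unadjusted p under 0.05. The part of these marker changes in the results below was not tested.

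AKR1C3, AKR1B10, AKR1C1 and AKR1C2 carried the large differences of the family, all of them higher after the knockdown. The AKR7A genes differed little, and AKR1C4 and AKR1D1 stayed at the dim end of the arrays. Of the 13 probe sets, 9 were called higher and 0 lower, beside 13.2% of all probe sets called higher and 9.89% called lower. The balance over all probe sets depended on the scaling: 2939 were called higher and 2198 lower on the values as deposited, and 2274 higher and 3138 lower after median centring, where 7 of the 13 AKR probe sets were called higher and 0 lower. With a minimum of 1.5-fold, 6 were called higher, beside 2.15% of all. The knockdown arrays lay entirely above the control arrays in 9 of the 13, beside 21.8% of all. The median difference was 0.27 over the 13 and -0.01 over all probe sets. Since the family was chosen by this comparison, nothing is read from these counts.

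AKR1C3, also called prostaglandin F synthase, reduces prostaglandins and makes active androgens from weak precursors. Its probe set (209160_at) stood at 8.69, 8.80 and 8.86 on the control arrays and at 10.66, 10.57 and 10.65 on the knockdown arrays. The lowest knockdown array lay 1.71 above the highest control array, far more than either group spanned. The log2 difference was 1.84 (SE 0.058, 95% interval 1.71 to 1.98), a 3.59-fold higher signal and the 9th largest of the 22215.

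AKR1B10 reduces retinal and lipid aldehydes and is best known from the gut and from tumours. Its probe set (206561_s_at) stood at 5.23, 5.94 and 5.36 in control and at 7.07, 7.24 and 7.39 in knockdown cells. The groups were 1.12 apart, but the control arrays were spread widely (SD 0.38, n = 3), and the array of control replicate 1 lay under its lower quartile. The difference was 1.72 (SE 0.187, 95% interval 1.28 to 2.17), or 3.30-fold, the 15th largest. The control level is thus close to the dim end of the array. AKR1B10 was read by this probe set alone, and whether signal of another gene entered it was not tested.

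AKR1C1 inactivates progesterone. The brighter of its probe sets (204151_x_at) stood at 6.79, 7.27 and 7.28 in control and at 8.0, 7.90 and 7.73 in knockdown cells. The second (216594_x_at) stood at 5.27, 5.42 and 5.68 and at 6.64, 6.36 and 6.24. In both, all knockdown arrays were above all control arrays, with differences of 0.77 (SE 0.144) and 0.96 (SE 0.134). The third (217626_at) did not follow them: it stood at 5.11, 5.29 and 5.34 against 5.32, 5.69 and 5.31, the groups overlapped, and the difference of 0.19 (SE 0.117, 95% interval -0.09 to 0.47) was not called. It lay at the lower quartile, and below it on 2 of the 6 arrays.

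AKR1C2 inactivates dihydrotestosterone. Its probe sets stood at 6.60, 7.07 and 6.50 in control against 7.68, 7.34 and 7.41 in knockdown cells (209699_x_at), and at 6.38, 6.41 and 6.72 against 7.48, 7.60 and 7.44 (211653_x_at). The groups did not overlap in either, and the differences were 0.76 (SE 0.161) and 1.00 (SE 0.0995). The first lost its call without control replicate 1, where the difference was 0.70. The 4 called probe sets of AKR1C1 and AKR1C2 end in _x_at, a suffix given to sets with probes that can also bind other transcripts. Their 4 differences lay between 0.76 and 1.00, below that of AKR1C3, and their SEs of 0.0995 to 0.161 were above its 0.058. How far signal from 1 gene of the cluster entered the probe sets of another was not tested, so the levels of AKR1C1 and AKR1C2 are uncertain as levels of single genes.

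AKR1C4 and AKR1D1 are liver enzymes of bile acid and steroid metabolism. AKR1C4 (210558_at) stood at 3.87, 4.42 and 4.16 in control and at 4.04, 4.03 and 4.22 in knockdown cells, with a difference of -0.05 (SE 0.136, 95% interval -0.38 to 0.27). AKR1D1 (207102_at) stood at 3.56, 3.79 and 3.61 against 3.79, 3.91 and 3.59, with a difference of 0.11 (SE 0.097, 95% interval -0.12 to 0.34). Both lay below the lower quartile on all 6 arrays and their groups overlapped. Of the 11 hepatocyte markers, 4 (ALB, APOB, APOC3 and CYP2E1) lay there on all arrays as well. APOA1 did so on 3 arrays, and the other 6 on none, among them SERPINA1 (9.56 in control cells), FGB (8.85) and CYP3A4 (7.69).

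AKR7A2 reduces succinic semialdehyde as well as aflatoxin dialdehyde, and AKR7A3 is its close relative. AKR7A2 stood at 10.30, 10.37 and 10.41 in control and at 10.67, 10.63 and 10.59 in knockdown cells by 1 probe set (202139_at). It stood at 10.97, 10.89 and 10.89 against 11.11, 11.07 and 11.17 by the other (214259_s_at). Neither overlapped between the groups, and the differences were small, 0.27 (SE 0.049) and 0.20 (SE 0.048).

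The probe sets of AKR7A3 disagreed. One (206469_x_at) stood at 7.75, 7.72 and 7.71 against 7.89, 7.93 and 7.83, a difference of 0.16 (SE 0.045) without overlap, and the other (216381_x_at) at 7.96, 7.77 and 7.85 against 7.92, 7.92 and 7.96, a difference of 0.07 (SE 0.058) with overlap. Part of the AKR7A calls were lost when 1 array was left out. That of AKR7A3 was lost without any 1 of the 6 arrays, with differences of 0.13 to 0.18 and after quantile normalisation (0.13) or median centring (0.11), and with a replicate block or trend and robust settings (0.16). The AKR7A2 probe set with the smaller difference lost its call without control replicate 2 (0.18) or 3 (0.18), without OCRL siRNA replicate 1 (0.20) or 3 (0.17), with a replicate block (0.20) and after median centring (0.15).

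**Figure D1:**
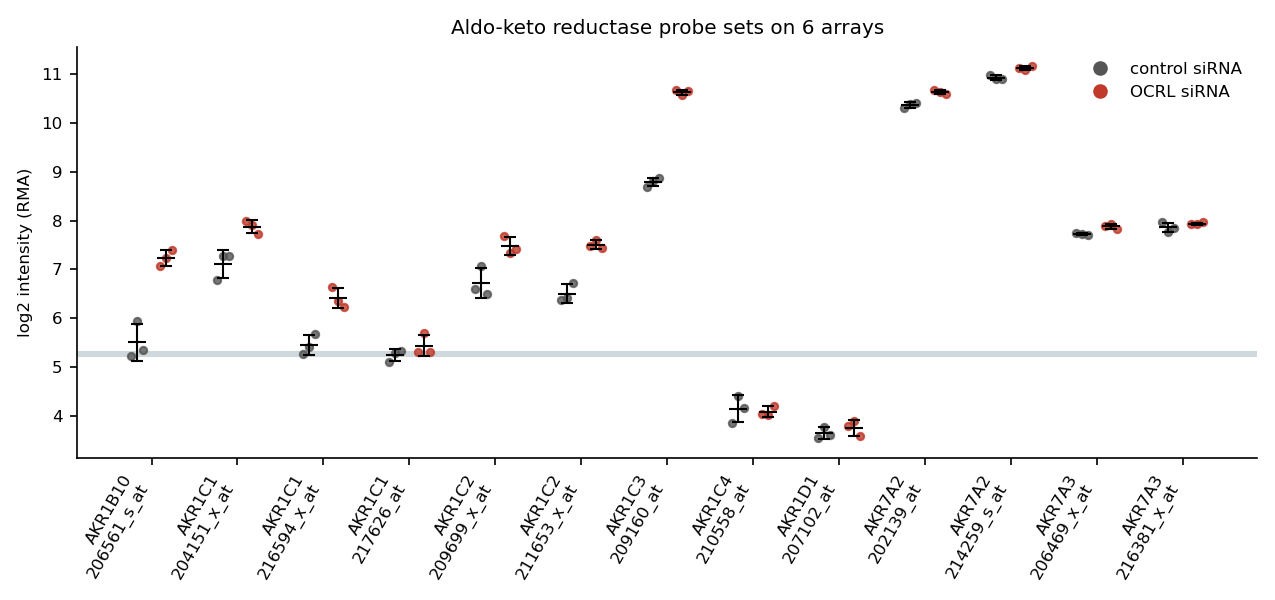
Log2 intensity (RMA) of each AKR probe set on the 3 control arrays (grey points) and the 3 OCRL siRNA arrays (red points), with mean and SD as black bars, and the lower quartile of all probe sets, 5.23 to 5.31, as a grey band. The groups stand apart most for AKR1C3 and AKR1B10, and AKR1C4 and AKR1D1 lie under the band.

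**Figure D2:**
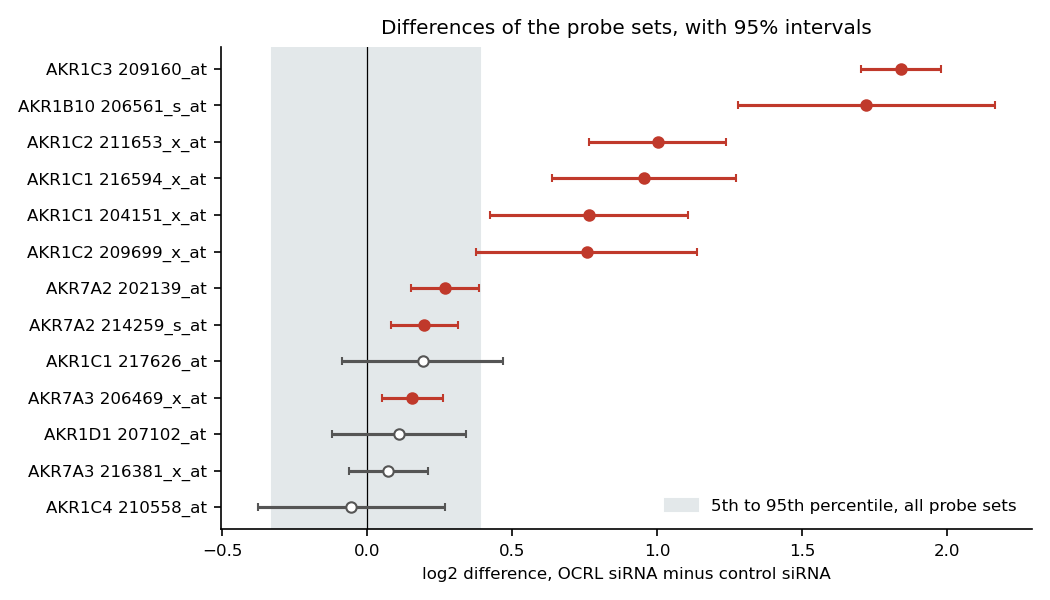
Log2 difference, OCRL siRNA minus control siRNA, of the 13 probe sets with 95% intervals from limma; filled red points were called higher, open grey ones were not called, and the shaded band holds the 5th to 95th percentile of all probe sets, -0.33 to 0.39. AKR1C3, AKR1B10 and 4 probe sets of AKR1C1 and AKR1C2 lie to the right of the band, and the AKR7A probe sets lie within it.

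Differences of the nearest measured genes on the chromosome were smaller than those of AKR1C3 and AKR1B10. Nothing is read from this, since the family was chosen with the rise of AKR1C3 known. By their brightest probe sets AKR1C1 and AKR1C2 differed by 0.77 and 0.76, nearer to the largest difference of a neighbour. Before the AKR1C cluster came PFKP (difference -0.08), the peptidase gene PITRM1, which fell by 0.47 (SE 0.043, adjusted p = 5.24e-04), and the zinc finger gene KLF6 (-0.02). After it came the tubulin gene TUBAL3 (-0.03), NET1, an exchange factor for RhoA, which rose by 0.60 (SE 0.098, adjusted p = 0.00534), and CALML5 (0.07). Of these 6 neighbours, 1 was thus called higher and 1 lower, and the largest difference among them was that of NET1.

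Around AKR1B10, the measured genes before it were MKLN1 (0.05), PODXL, a sialomucin of podocytes, which fell by 0.51 (SE 0.067, adjusted p = 0.00228), and CHCHD3 (-0.02). Those after it were BPGM (-0.07), CALD1 (-0.07) and AGBL3 (0.03), none of them called by limma. Of the 8 probe sets of CALD1, 1 was called.

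**Figure D3:**
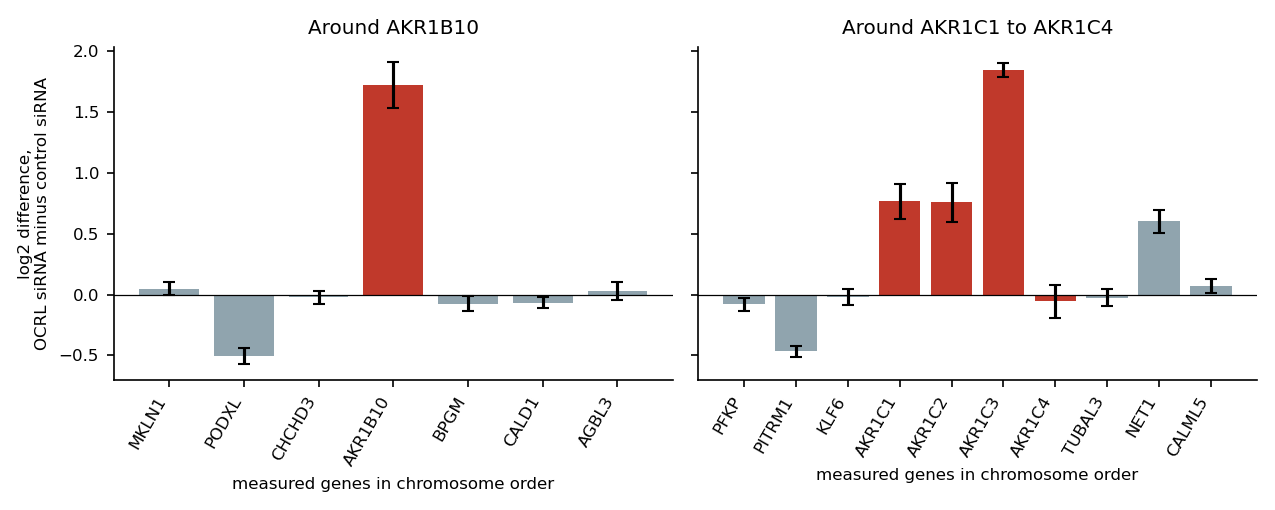
Log2 difference, OCRL siRNA minus control siRNA, with its SE, of AKR genes (red bars) and of the 3 nearest measured genes on each side (grey bars), in chromosome order and not to distance. AKR1B10 and AKR1C3 stand at 1.72 and 1.84, AKR1C1 and AKR1C2 at 0.77 and 0.76, and the neighbours lie between -0.51 and 0.60.

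The genes whose pattern over the 6 arrays was most like that of AKR1C3 were CHST2, MMP1, CSGALNACT1, CD83 and MMP13. Likeness was the root mean square distance between log2 values centred on the mean of each gene, over 6 arrays in 2 groups, so it mostly reflects a similar size of difference. CHST2, a sulfotransferase of glycans, was nearest at 0.066, with a difference of 1.76. The collagenase genes MMP1 and MMP13 stood at 0.079 and 0.128, CSGALNACT1, an enzyme of chondroitin sulfate synthesis, at 0.110 and CD83, a surface protein of activated immune cells, at 0.112. AKR1B10 came 17th at 0.240, and AKR1C1 and AKR1C2 came 161st and 189th at 0.558 and 0.579.

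Genes that work beside the aldo-keto reductases were taken as 11 lists, of which 168 of 194 genes were measured, each by its brightest probe set. Of the 168, 43 rose, 15 fell and 110 were not called, with a median difference of 0.04. After median centring 36 rose and 19 fell. Over the alternatives that kept all 168 genes, 35 to 51 rose and 13 to 19 fell. Over all 11963 genes the median was 0.00, with 15.5% called higher and 10.5% lower. Differences of these genes come from the same arrays as those of the AKR genes.

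Carbonyl reductases outside the family reduce many of the same substrates. Of 14 measured, 5 rose and 1 fell, with a median difference of 0.08. The quinone reductase NQO1 rose from 11.53 ± 0.022 to 12.55 ± 0.007 (SD, n = 3), by 1.02 (SE 0.039, adjusted p = 3.22e-05). The short-chain reductases DHRS1 (0.61, SE 0.067), CBR3 (0.38, SE 0.038) and CBR1 (0.30, SE 0.052) rose less, as did NQO2 (0.19), named after its value was seen. NQO2 lost its call without control replicate 2 (0.19), without OCRL siRNA replicate 1 (0.19) or 2 (0.18), after median centring (0.15) and with a replicate block (adjusted p = 0.0626). The 1 that fell, GRHPR (-0.21, named in the same way), lost its call without control replicate 2 (-0.20) or 3 (-0.18), without OCRL siRNA replicate 1 (-0.18), 2 (-0.22) or 3 (-0.22), and on the mean of its probe sets (-0.17), which left 0 lower by limma.

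Aldehyde dehydrogenases oxidise the aldehydes that aldo-keto reductases reduce. Of 17 measured, 5 rose and 0 fell by limma, with a median difference of 0.07, and 6 had an unadjusted p under 0.05. After median centring, with array weights, with dim probe sets left out or on the mean of a gene's probe sets, 1 was called lower. ALDH1A3, which makes retinoic acid, rose by 0.80 (SE 0.069, adjusted p = 4.01e-04), ALDH8A1 by 0.59 (SE 0.121), ALDH9A1 by 0.33 (SE 0.041) and ALDH1B1 by 0.24 (SE 0.053), as did ALDH6A1 (0.29, SE 0.080), named after its value was seen. The control arrays of ALDH8A1 read 5.30, 5.20 and 5.29, around the lower quartile of all probe sets (5.23 to 5.31). Its knockdown arrays were spread widely (SD 0.25, n = 3). The count of genes called higher was 3 without control replicate 2, control replicate 3 or OCRL siRNA replicate 3, and also after median centring. ALDH1B1 lost its call in these settings, at differences of 0.23, 0.22, 0.20 and 0.19, and with a replicate block (adjusted p = 0.0501), and its other probe set was not called higher. ALDH6A1 lost its call in the same settings but the block, at 0.24, 0.27, 0.25 and 0.24, and also without OCRL siRNA replicate 1 (0.26) or without _s_at and _x_at probe sets (0.16).

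NADPH is the cofactor of the family. Of 13 genes of NADPH supply measured, 4 rose and 0 fell by limma, with a median of 0.11 and 6 at an unadjusted p under 0.05. With trend and robust settings, 7 rose. Without _s_at and _x_at probe sets or on the mean of a gene's probe sets, 1 was called lower. The mitochondrial isocitrate dehydrogenase IDH2 rose by 0.51 (SE 0.060), the transhydrogenase NNT by 0.41 (SE 0.058), the cytosolic isocitrate dehydrogenase IDH1 by 0.27 (SE 0.040) and the transaldolase TALDO1 by 0.17 (SE 0.049). TALDO1 lost its call without any 1 of the 6 arrays (differences of 0.13 to 0.19), with a replicate block (adjusted p = 0.0933) and after median centring (0.125).

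NRF2 target enzymes held the largest number of calls of the 11 lists, and also the most measured genes, some of them shared with other lists. Of 26 measured, 13 rose and 4 fell, with a median of 0.14, beside 15.5% of all genes called higher and 10.5% lower. NQO1 led the list, and the haem oxygenase HMOX1 rose by 0.97 (SE 0.056, adjusted p = 8.80e-05) and the iron-binding protein PIR by 0.63 (SE 0.041, adjusted p = 1.47e-04). Those that fell were the glutathione conjugate exporter ABCC1 (-0.72, SE 0.050, adjusted p = 1.75e-04) and, named after their values were seen, UGDH (-0.54, SE 0.077), the glutamate-cysteine ligase subunit GCLM (-0.52, SE 0.090) and the cystine transporter SLC7A11 (-0.50, SE 0.057). SLC7A11 was not called on the mean of its probe sets (-0.26, adjusted p = 0.0529). Without _s_at and _x_at probe sets, 7 of 19 rose and 5 fell.

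Of 11 measured genes of NRF2 and its regulators, 3 rose and 0 fell by limma, with a median of 0.09 and 5 at an unadjusted p under 0.05. With trend and robust settings, with dim probe sets left out or on the mean of a gene's probe sets, 1 was called lower. NFE2L2, the gene of NRF2, was measured at 12.59 ± 0.078 with control and 12.57 ± 0.008 with OCRL siRNA (limma, adjusted p = 0.841), and its inhibitor KEAP1 at 9.85 ± 0.060 and 9.94 ± 0.009 (adjusted p = 0.229). Those that rose were the autophagy receptor SQSTM1 (0.59, SE 0.045), the small MAF protein MAFF (0.28, SE 0.044) and the repressor BACH1 (0.22, SE 0.052). BACH1 lost its call without control replicate 2 (0.19) or 3 (0.22), OCRL siRNA replicate 1 (0.23) or 3 (0.21) and after median centring (0.18).

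Genes of prostaglandin synthesis, transport and signalling were called in both directions. Of 20 measured, 5 rose and 3 fell, 12 were not called, and the median was 0.04. HPGD, which degrades prostaglandins, rose by 1.08 (SE 0.048, adjusted p = 4.21e-05), the cyclooxygenase PTGS1 by 0.88 (SE 0.052) and the prostaglandin E synthase PTGES by 0.85 (SE 0.065). PTGFR, the receptor of the prostaglandin F that AKR1C3 makes, fell from 9.12 ± 0.0002 to 8.25 ± 0.0094 (SD, n = 3), by 0.87 (SE 0.038, adjusted p = 4.21e-05). Named after their values were seen, the phospholipase PLA2G4A (0.93, SE 0.081) and the transporter SLCO2A1 (0.54, SE 0.042) rose, and the prostaglandin D synthase PTGDS (-1.61, SE 0.161) and the exporter ABCC4 (-0.58, SE 0.063) fell. The inducible cyclooxygenase PTGS2 lay below the lower quartile on all 6 arrays (4.12 ± 0.13 and 4.22 ± 0.18, adjusted p = 0.574). The call of PTGS1 ended when probe sets ending in _s_at or _x_at were left out (0.05, adjusted p = 0.841), and 1 of its 3 probe sets was not called higher.

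Most steroid enzymes and receptors were not called. Of 25 measured, 3 rose and 2 fell, with a median of -0.02, and 12 lay below the lower quartile on every array. The steroid sulfatase STS fell by 0.57 (SE 0.061, adjusted p = 8.96e-04), although 1 of its 4 probe sets was not called lower, and HSD17B12 fell by 0.23 (SE 0.043). HSD17B4, of peroxisomal fat oxidation, rose by 0.27 (SE 0.043) and the mineralocorticoid receptor NR3C2 by 0.31 (SE 0.072), as did HSD17B11 (0.21, SE 0.053), named after its value was seen. NR3C2 lost its call without control replicate 2 (0.28), control replicate 3 (0.29) or OCRL siRNA replicate 3 (0.24), and HSD17B11 in the same settings (0.19, 0.20 and 0.17), so that 1 gene of the list, HSD17B4, was called higher there. HSD17B11 also lost its call without OCRL siRNA replicate 1 (0.21) and after median centring (0.16). Of 19 retinoid genes, 2 rose, ALDH1A3 and the retinol dehydrogenase DHRS9 (0.28, SE 0.049), and 1 fell, the retinoic acid carrier CRABP2 (-0.25, SE 0.044), with a median of -0.02.

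AKR1B1 and AKR1A1 act in the polyol and glucuronate pathways. Of 9 measured polyol and osmolyte genes, 2 rose and 1 fell, with a median of -0.03. The glucose transporter SLC2A1 rose by 0.42 (SE 0.050) and hexokinase HK2 by 0.42 (SE 0.063), each with a second probe set that was not called higher. The rise of HK2 was not called on the mean of its probe sets (0.10, adjusted p = 0.287), nor that of SLC2A1 without _s_at and _x_at probe sets (0.23, adjusted p = 0.114). The inositol transporter SLC5A3 fell by 0.28 (SE 0.064), a call lost without control replicate 3 (-0.30) or OCRL siRNA replicate 1 (-0.28) or 2 (-0.25). Up to 2 genes of the list were called lower in other settings, and 1 of its 3 probe sets was not called lower.

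Of 10 measured genes of glucuronate and inositol metabolism, 2 rose and 2 fell, with a median of -0.08. UGDH, which makes UDP-glucuronate, fell by 0.54 (adjusted p = 0.00313), and the inositol phosphatase IMPA1 fell by 0.32 (SE 0.045). UGP2, which makes UDP-glucose, rose by 0.28 (SE 0.042) and UXS1, which uses UDP-glucuronate, by 0.19 (SE 0.041). The call of UXS1 was lost without OCRL siRNA replicate 3 (0.18) and after median centring (0.15).

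**Figure D4:**
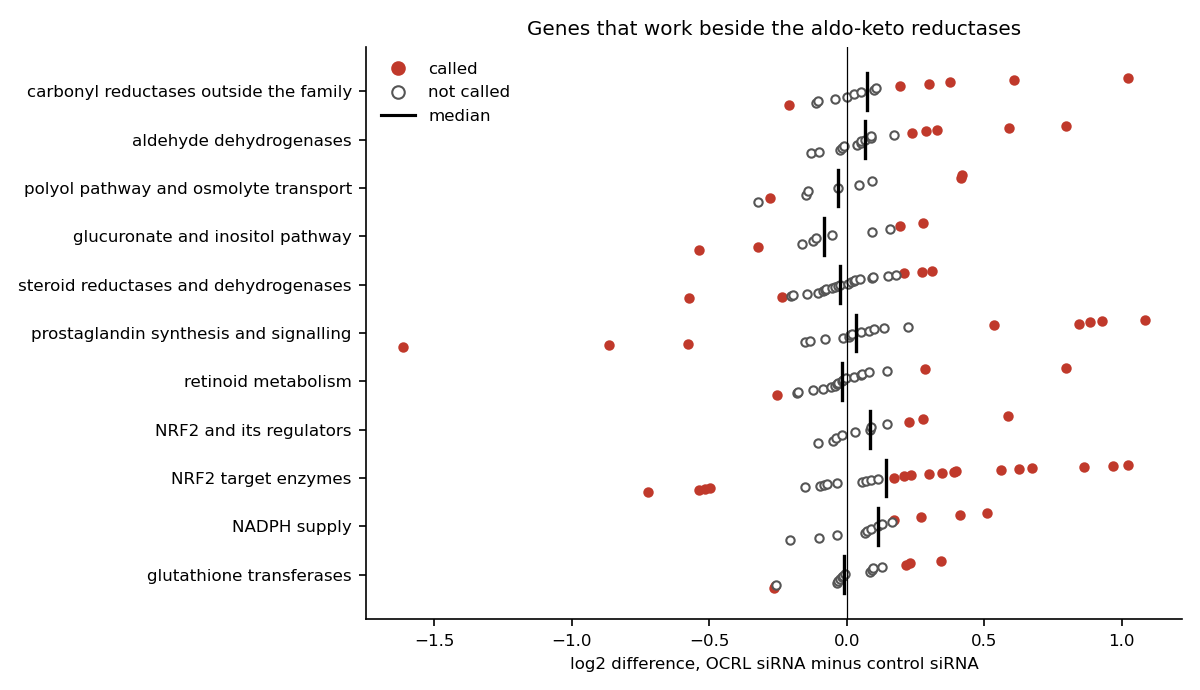
Log2 difference, OCRL siRNA minus control siRNA, of each measured gene of 11 lists; red points were called by limma, open points were not, and black lines are list medians. NRF2 target enzymes hold 13 points called higher and 4 called lower, and prostaglandin genes run from -1.61 to 1.08.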

How the data were processed

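Biotin-labelled cRNA of each culture was read on 1 single-colour Affymetrix array. The authors deposited log2 intensities per probe set, made with affy and RMA per the submitters' processing notes; versions are not given in the sources used here. RMA scales arrays to each other before probe sets are summarised. The deposited arrays were close but not equal, with a median of 7.23 over control and 7.28 over OCRL siRNA arrays. A shift of most genes together can be lost, and differences between dim signals come out too small.

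Of 22277 probe sets, 62 AFFX controls were left out. By GEO's platform annotation 19064 probe sets had 1 symbol, 1043 several and 2108 none. The probe set with the highest mean stood for a gene. The test was limma 3.58.1 (R 4.3.3), lmFit and eBayes on the group alone, two-sided, with p-values adjusted by Benjamini-Hochberg over the 22215 probe sets and called at 0.05. Values are mean ± SD of 3 arrays, and SE is the moderated standard error. Each p-value sets a difference against this moderated error, which draws on the spread between cultures over all probe sets. The number of arrays limits precision. RefSeq promoter windows were aligned with Biopython 1.88, and figures drawn with matplotlib 3.10.9. The fit was checked on simulated data.

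The members and lists were chosen with earlier results of these data known. The rule for named genes took all AKR probe sets, OCRL, at most 4 called genes per pathway list by p, NFE2L2, KEAP1, NQO1, CBR1, PTGS2 and SORD (which was not analysed here), the 5 genes most like AKR1C3 and the 3 nearest measured neighbours on each side. Other genes are marked where named, or are markers. The alternatives were a replicate block, each array left out, quantile normalisation, median centring, trend and robust eBayes, array weights, probe sets with a mean below the median (dim) left out, _s_at and _x_at probe sets left out, the mean of a gene's probe sets, and a minimum of 1.5-fold.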

Additional observations from a re-analysis of the deposited data

How the results depend on the processing

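Among the 154 values of the 13 AKR probe sets under the alternatives, 0 called values reversed and 17 lost their call. These belonged to 3 probe sets, as given above for AKR1C2, AKR7A2 and AKR7A3. The number called higher was 7 to 8 with an array left out, 7 with a replicate block or median centring, 8 after quantile normalisation or with trend and robust settings and 9 with array weights. Over all 22215 probe sets, 2108 to 2735 were called higher with an array left out and 2746 after quantile normalisation. There were 3586 with trend and robust settings and 3400 with array weights. With dim probe sets left out, 5 of the 6 that were left were called higher, beside 3184 of all 11108 left. The 5 were those of AKR1C3, the brightest of AKR1C1, both of AKR7A2 and the AKR7A3 probe set called above. AKR1B10 and AKR1C2 had no probe set left in that setting. Without _s_at and _x_at probe sets, which are 8 of the 13, 2 of 5 were called (AKR1C3 and AKR7A2). The probe set of AKR1C1 that stayed in was not called (0.19), and AKR1B10 and AKR1C2 had none left. That last setting tested fewer probe sets, 11813, and gave 1274 higher and 1074 lower, with 25 list genes higher of 116. The replicate block gave 2561 probe sets higher and 2010 lower, and 40 list genes higher and 16 lower. Deviations of same-numbered cultures correlated at 0.14, 0.12 and -0.01, and those of the 6 other pairs at -0.18 to 0.10. The first and second cultures thus correlated best with their own number and the third did not, so the numbers were not taken as a pairing, and whether cultures shared a day or batch is not settled by this. Precision is limited by 3 arrays per group, and AKR1C4, AKR1D1 and the third AKR1C1 probe set are too dim for a firm statement.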

Other observations

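Glutathione transferases, which conjugate the same kinds of reactive carbonyls, were called in both directions. Of 16 measured, 3 rose and 2 fell, with a median difference of -0.01, beside 15.5% of all genes called higher and 10.5% lower. GSTK1, of mitochondria and peroxisomes, rose by 0.34 (SE 0.050, adjusted p = 0.00359, limma) and the membrane-bound MGST2 by 0.23 (SE 0.040), as did GSTM3 (0.22, SE 0.043), named after its value was seen. GSTA4, which acts on lipid aldehydes, fell by 0.26 (SE 0.043, adjusted p = 0.00598) and GSTM2 fell by 0.26 (SE 0.047). Genes of the GSTM group are close paralogs, so signal may be shared among them.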
